A study of Mus musculus with 18 samples.

Results

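A set of 10 epithelial genes was followed through RNA sequencing of mouse embryos from which the head had been removed. The genes were taken by symbol from the deposited expression table, which lists 55138 genes: Trp63, Krt15, Grhl2, Esrp1, Krt8, Krt18, Krt19, Epcam, Cldn6 and Foxa1. All 10 were found, once each, and all passed the filter on low counts at both stages. The 18 libraries form 6 groups of 3. At E9.5 (embryonic day 9.5) they were homozygous Del(i9-13) embryos and wild-type littermates, both poly(A)-enriched. At E10.5 they were homozygous Del(i9-13), homozygous Del(i9-13):Hoxb13hd, homozygous Hoxb13hd and wild-type littermates, all ribo-depleted. Del(i9-13) is an altered HoxB cluster on chromosome 11, and its name reads as a deletion between Hoxb9 and Hoxb13. The letters hd are not explained in the sources used here. The title of the series ties the insulation of Hoxb13, the last HoxB gene to be activated, to the timing of tail formation. Whether a library is 1 embryo or a pool is not given, so the p-values cover only how far these libraries spread, which may be partly technical.

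Epithelia are sheets of cells held together by junctions and by a keratin filament network, and in an embryo of this age they cover the body (surface ectoderm), line the gut (endoderm) and form ducts. Keratins pair a basic type II protein with an acidic type I protein: Krt8 (type II) pairs with Krt18 (type I) in single-layered epithelia, with Krt19 as a further type I partner, while Krt15 is a type I keratin of the basal layer of stratified epithelium. Trp63 is the transcription factor that commits surface ectoderm to a stratified fate. Grhl2 is a transcription factor that maintains junction genes and is needed for neural tube closure, and Esrp1 is a splicing factor that keeps epithelial exon choice. Epcam and Cldn6 are membrane proteins of cell contacts and tight junctions, and Foxa1 is a pioneer transcription factor of endoderm. In whole tissue, fewer cells of a type and less RNA per cell cannot be told apart.

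Promoters of 5 of the 10 genes (Krt8, Krt18, Epcam, Cldn6 and Foxa1) were in the RefSeq table used here (GRCm38.p6, 250 bases before to 50 after the annotated start), and the other 5 are named only. Krt8, Krt18 and Cldn6 are shown because these 3 genes had the largest fitted differences at E9.5. Capitals mark the E-box CACCTG, read on both strands (CAGGTG), the letters that ZEB and SNAIL repressors of epithelial genes are known to recognise. Krt8 lies at chr15:102004293-102004592 (minus strand), Krt18 at chr15:102027966-102028265 (plus strand) and Cldn6 at chr17:23679115-23679414 (plus strand).
Krt8: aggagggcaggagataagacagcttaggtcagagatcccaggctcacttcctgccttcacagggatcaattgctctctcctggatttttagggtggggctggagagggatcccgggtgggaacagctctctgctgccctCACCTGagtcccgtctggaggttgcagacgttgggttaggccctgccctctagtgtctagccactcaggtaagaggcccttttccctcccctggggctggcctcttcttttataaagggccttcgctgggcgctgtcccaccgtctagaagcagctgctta
Krt18: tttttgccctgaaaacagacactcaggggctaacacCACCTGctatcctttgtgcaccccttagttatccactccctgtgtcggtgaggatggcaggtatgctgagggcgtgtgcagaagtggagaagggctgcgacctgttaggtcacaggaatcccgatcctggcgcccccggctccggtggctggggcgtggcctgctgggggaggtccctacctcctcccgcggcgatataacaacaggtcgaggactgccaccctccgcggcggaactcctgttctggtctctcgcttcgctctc
Cldn6: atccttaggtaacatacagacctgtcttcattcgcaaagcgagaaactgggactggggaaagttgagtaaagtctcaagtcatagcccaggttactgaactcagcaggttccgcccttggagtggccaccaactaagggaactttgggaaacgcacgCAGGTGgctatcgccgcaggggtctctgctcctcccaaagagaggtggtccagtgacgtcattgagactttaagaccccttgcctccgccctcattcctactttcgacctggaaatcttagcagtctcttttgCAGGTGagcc
The match began at position -111 from the start in Krt8, at -214 in Krt18, and at -93 and 41 in Cldn6. All 5 promoters held at least 1 match, as did 20.2% of the 32851 promoters in the table. The Grainyhead motif AACNGGTT (both strands) was in 0 of the 5 and in 2.09% of all promoters. The forkhead motif TGTTTAC was in Foxa1 alone of the 5 and in 3.65% of all, and TATAAA was in Krt8 alone of the 5 and in 13.6% of all. None of these matches overlapped a match of another motif. A match is a description of the letters and no evidence of binding.

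Depth was 29.8 to 35.9 M counts per library at E9.5 and 19.3 to 25.7 M at E10.5. Hoxb13 checks the labels of the deletion. It had 37.7 to 45.05 CPM (counts relative to a library's TMM-adjusted total) in E9.5 Del(i9-13) libraries, against 0.0335 to 0.133 CPM in wild type. At E10.5 it had 5.89 to 12.2 CPM in Del(i9-13) and 9.90 to 11.98 CPM in Del(i9-13):Hoxb13hd libraries, against at most 0.106 CPM in Hoxb13hd and 1.13 CPM in wild type. These E10.5 ranges overlapped between Hoxb13hd and wild type, and between Del(i9-13) and Del(i9-13):Hoxb13hd, so Hoxb13 does not check the hd labels. Markers were checked for surface ectoderm and endoderm. For surface ectoderm, the basal keratin Krt5 had 4.47 to 6.26 CPM at E9.5 and 2.88 to 9.19 CPM at E10.5. For endoderm, the transcription factor Foxa2, which floor plate and notochord also express, had 6.39 to 8.91 CPM at E9.5 and 3.89 to 6.95 CPM at E10.5. Other endoderm genes differed widely in level at E10.5. Cdh17, Hnf4g, Pdx1 and Nkx2-1 were at or near 0, with at most 0.273, 0.127, 0.498 and 0.551 CPM. Cdx2 had 1.56 to 17.3 CPM, Shh 5.21 to 10.1, Sox17 4.73 to 7.67 and Hnf4a 0.805 to 15.5. A hindgut source of the 10 genes was not tested and is not shown. The 7 head genes summed to 0.297 to 1.33 CPM, Six3, Six6 and Oc90 being at 0 in every E10.5 library. Trophoblast genes were likewise low: Ctsq was at 0 in all 18 libraries and Plac1, the highest, stayed at or below 8.72 CPM. Genes of visceral endoderm (the yolk sac epithelium) and liver bud varied most. Their 15 markers summed to 54.2 to 2424 CPM over the E10.5 libraries and to 45.3 to 1486 CPM over those of E9.5, and they are given beside the results below.

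Levels between genes were compared per transcript length, in FPKM (fragments scaled to transcript length and to the mapped fragments). In wild-type embryos at E9.5 the keratin pair led with 55.3 ± 3.47 FPKM for Krt18 and 54.8 ± 4.26 for Krt8 (SD, n = 3). Cldn6 (25.3 ± 5.02), Krt19 (17.2 ± 3.65) and Epcam (12.9 ± 2.36) followed. Esrp1, Trp63, Foxa1, Grhl2 and Krt15 lay between 1.80 and 4.33 FPKM. Libraries of neighbouring genes in this order overlapped, except between Krt8 and Cldn6 and between Epcam and Esrp1. In wild type at E10.5 Krt18 (36.6 ± 2.04 FPKM) stood above Krt8 (30.9 ± 1.84), followed by Cldn6 (14.0), Epcam (11.4), Krt19 (8.91), Trp63 (3.00), Esrp1 (2.46), Krt15 (1.81), Grhl2 (1.72) and Foxa1 (0.586). There only Krt15 and Grhl2 overlapped as neighbours. Between the 2 orders Foxa1 moved to the last place, and Epcam and Krt19, Esrp1 and Trp63, and Grhl2 and Krt15 changed places.

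**Figure D1:**
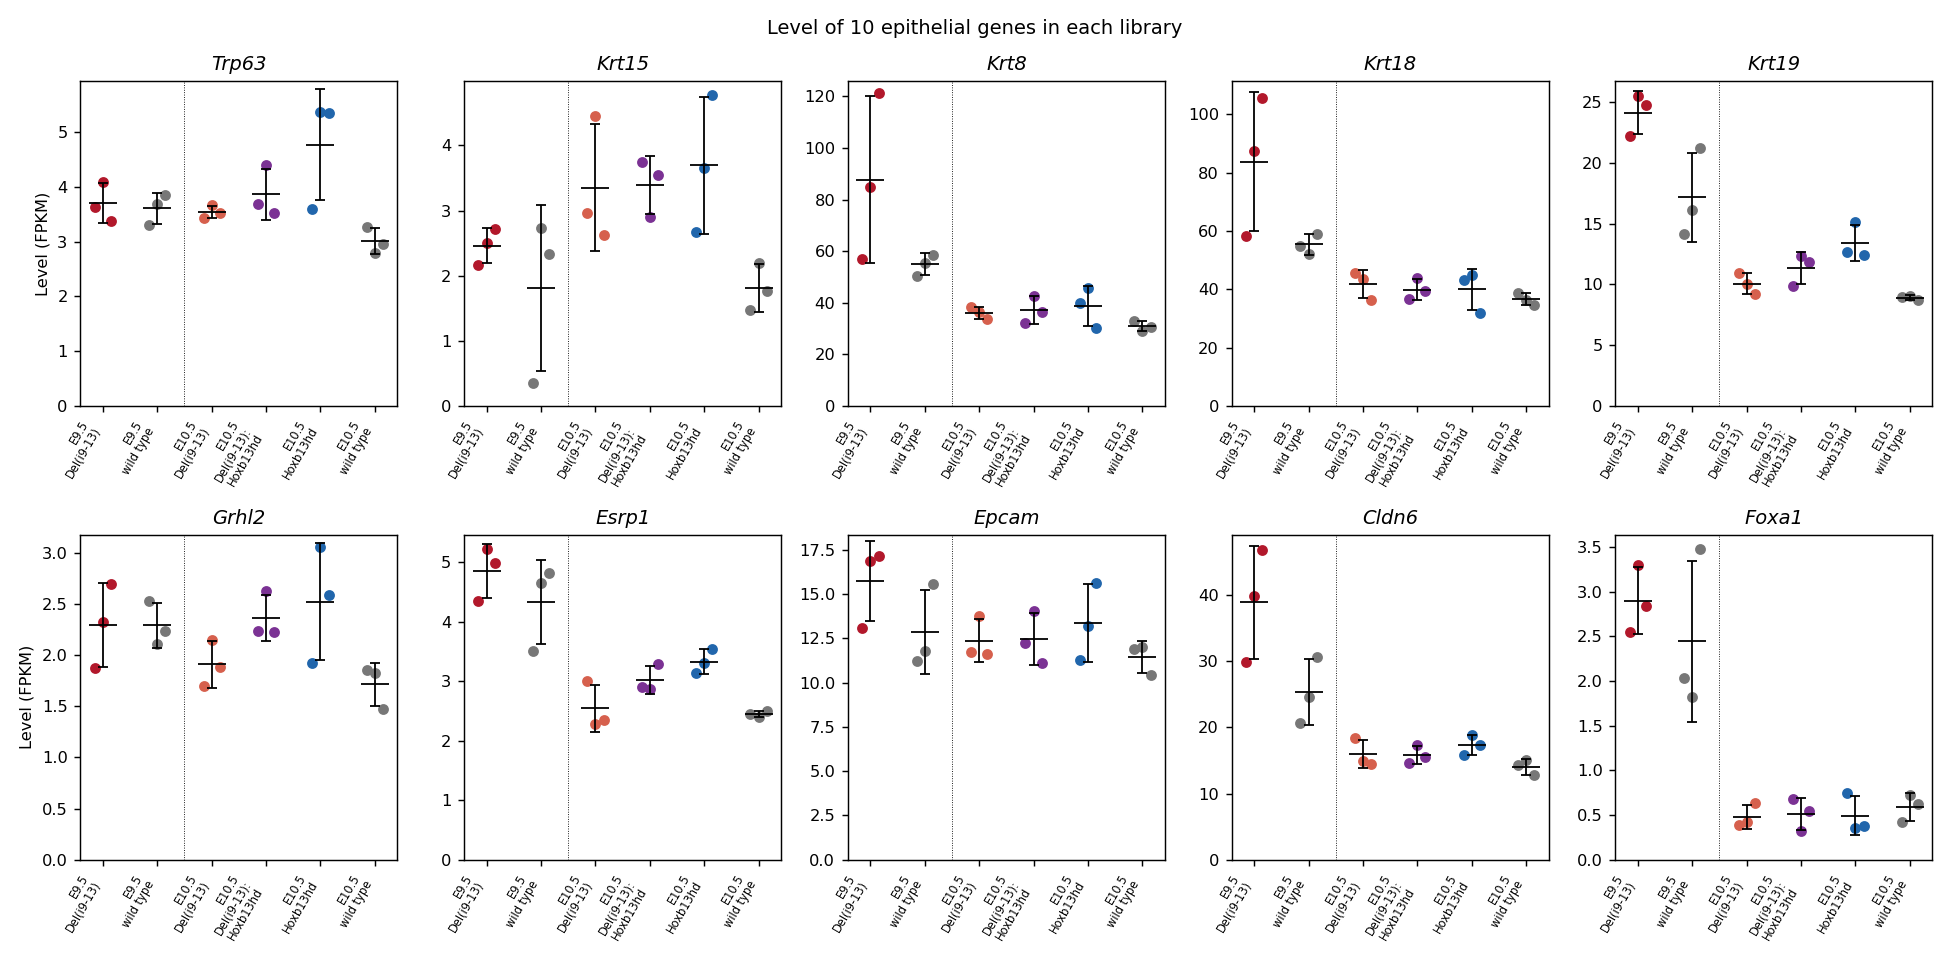
FPKM of each of the 10 genes (y axis, linear from 0) in each of the 18 libraries (points), by group, with the group mean (bar) and SD (whiskers), n = 3; a dotted line parts E9.5 from E10.5. Krt8, Krt18, Krt19, Cldn6, Esrp1 and Foxa1 sit higher in E9.5 than in E10.5 wild type, and Krt15 and Epcam at about the same level. Hoxb13hd points lie above those of E10.5 wild type for Trp63, Krt15, Krt19, Esrp1, Grhl2 and Cldn6.

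Wild-type levels at E9.5 divided by those at E10.5 were 4.17 for Foxa1, 1.93 for Krt19, 1.81 for Cldn6, 1.77 for Krt8, 1.76 for Esrp1, 1.51 for Krt18, 1.34 for Grhl2, 1.20 for Trp63, 1.12 for Epcam and 0.996 for Krt15, as the plot of levels shows. No test was made, since stage and library type (poly(A)-enriched or ribo-depleted) cannot be told apart. Krt8 over Krt18 in FPKM ran from 0.808 to 1.15 over the 18 libraries, with a median of 0.929. It was 0.847, 0.808 and 0.882 in E10.5 wild type. Hoxb13hd (0.930, 1.02 and 0.947) and E9.5 wild type (0.916, 1.07 and 0.994) lay above these without overlap. E10.5 Del(i9-13) and Del(i9-13):Hoxb13hd overlapped E10.5 wild type, and no test of the ratio was made. Krt8 over Krt19 ran from 2.43 to 4.91. Krt8 over Krt15 ran from 6.34 to 144, the high end being the E9.5 wild-type library with the lowest Krt15. Krt8 and Krt18 are neighbours on chromosome 15 (mm10 chr15:101996697-102004482 and chr15:102028179-102032027), and the pseudogene Krt8-ps had at most 0.473 CPM. Trp63, Grhl2 and Krt8 overlap annotated noncoding genes, and with the strand setting of the counting not given in the sources used here, reads from these cannot be told apart from theirs.

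Hoxb13hd embryos at E10.5 were the only group in which members of the set changed by the test. Trp63, Krt15, Krt19, Grhl2 and Esrp1 were higher than in wild type, by 1.40 to 2.13 times, and none was lower (edgeR quasi-likelihood test, Benjamini-Hochberg adjusted p of 0.05 or less). That is 5 of 10, all higher, where 3.01% of the 17202 genes tested were called, and 1.42% of those tested were called higher. The 10 genes were chosen with earlier results of these data known, so these shares describe the calls and are no test of the set. The median fitted log2 change of the 10 genes was 0.43, with 9 of 10 positive, against 0.003 over all genes. Krt8, Krt18, Epcam, Cldn6 and Foxa1 did not pass.

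Trp63, the stratified fate regulator, had 21.4, 32.3 and 33.3 CPM in the Hoxb13hd libraries, against 19.2, 17.4 and 16.8 CPM in those of wild type. All Hoxb13hd libraries lay above all wild-type ones, replicate 1 by the least. The log2 change was 0.70 (SE 0.14, edgeR adjusted p = 0.0237). Krt15, the basal keratin, had 6.71, 9.42 and 12.3 CPM in Hoxb13hd, against 3.63, 5.38 and 4.25 CPM in wild type. The groups did not overlap, and the log2 change of 1.09 (SE 0.25, edgeR adjusted p = 0.0399) was the largest of the set. Group totals were 575 and 308 counts, so Krt15 was among the less deeply counted members.

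Krt19, the small keratin of simple epithelia, had 28.7, 36.1 and 29.6 CPM in Hoxb13hd, against 20.2, 20.5 and 20.0 CPM in wild type. Here wild type varied by no more than 0.5 CPM and every Hoxb13hd library stood well clear of it. The log2 change was 0.64 (SE 0.11, edgeR adjusted p = 0.0128), the smallest p of the set. Grhl2 had 13.5, 19.3 and 17.1 CPM in Hoxb13hd, against 12.7, 11.7 and 10.1 CPM in wild type. Its lowest Hoxb13hd library was close to its highest wild-type library, and the log2 change was 0.53 (SE 0.13, edgeR adjusted p = 0.0434). Esrp1 had 15.4, 17.7 and 19.7 CPM in Hoxb13hd, against 12.7, 12.4 and 12.5 CPM in wild type. Its groups did not overlap, and the log2 change was 0.49 (SE 0.11, edgeR adjusted p = 0.0328).

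Krt8 had 115, 134 and 90.8 CPM in Hoxb13hd, against 91.4, 83.9 and 86.9 CPM in wild type. Replicate 3 fell within the wild-type range, and the log2 value was 0.38 (SE 0.13, edgeR adjusted p = 0.120). Its partner Krt18 had 88.8, 95.7 and 69.5 CPM in Hoxb13hd, against 77.7, 75.2 and 71.1 CPM in wild type, with a log2 value of 0.18 (SE 0.12, edgeR adjusted p = 0.407). The same Hoxb13hd library was lowest for both keratins and highest of the 12 for Trp63, Krt15, Esrp1 and Epcam. Cldn6 had 33.0, 39.6 and 37.1 CPM in Hoxb13hd, against 29.1, 30.9 and 25.7 CPM in wild type, without overlap (log2 0.36, SE 0.11, edgeR adjusted p = 0.106). Epcam had 28.5, 34.7 and 41.6 CPM in Hoxb13hd, against 28.8, 30.2 and 26.4 CPM in wild type (log2 0.29, SE 0.13, edgeR adjusted p = 0.226). Foxa1, at 3.40, 1.66 and 1.74 CPM in Hoxb13hd against 1.81, 3.22 and 2.74 CPM in wild type, had a log2 value of -0.19 (SE 0.35, edgeR adjusted p = 0.817).

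**Figure D2:**
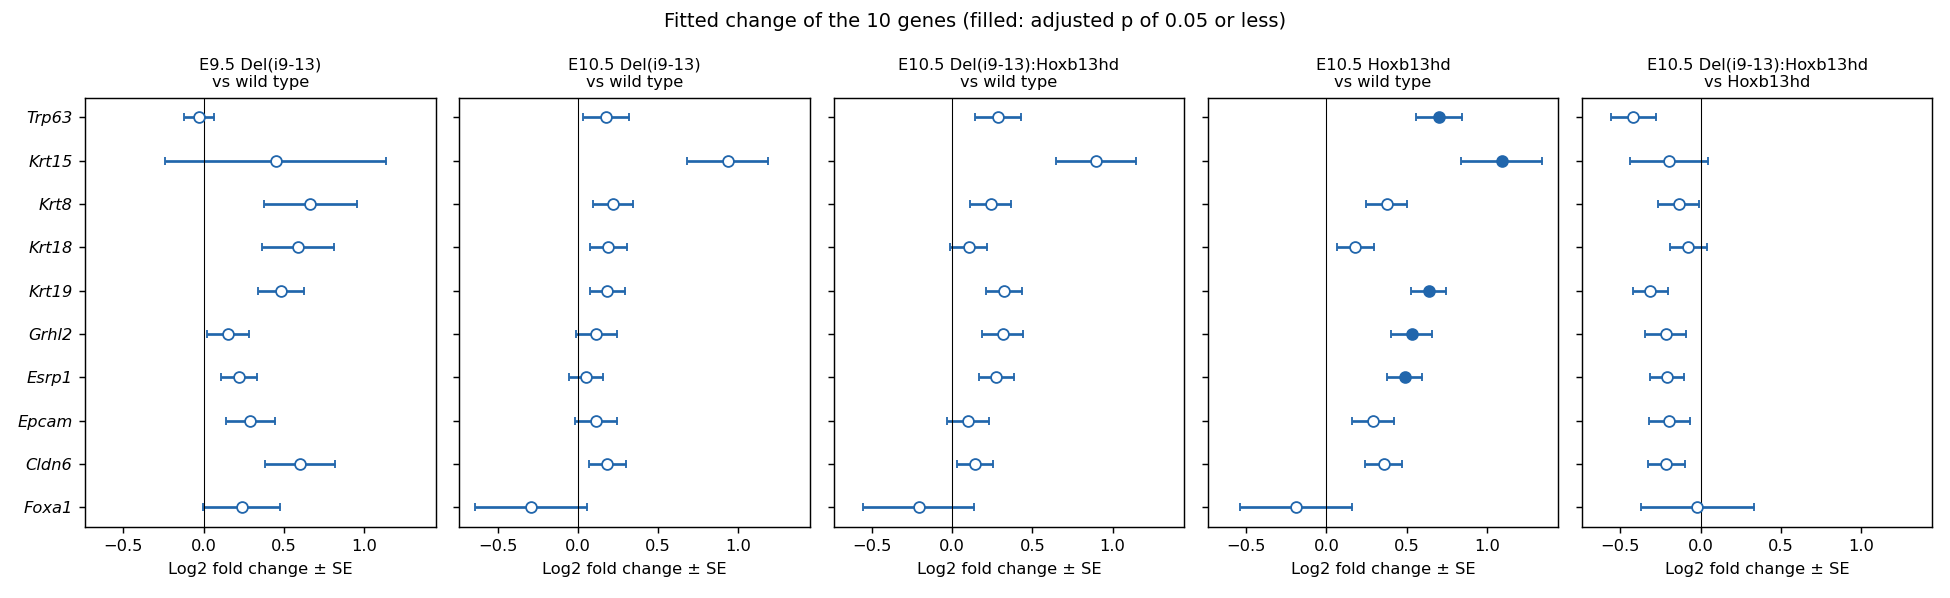
Fitted log2 fold change (x axis) with its SE for each of the 10 genes (rows) in 5 comparisons (panels), n = 3 libraries per group; filled points have an adjusted p of 0.05 or less. Filled points appear only for Trp63, Krt15, Krt19, Grhl2 and Esrp1 in the panel of E10.5 Hoxb13hd against wild type.

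The plot of fitted changes shows these calls beside the other comparisons, and the plot of alternatives shows how far they rest on single libraries. Leaving out wild-type replicate 1, wild-type replicate 3 or Hoxb13hd replicate 2 left 0 of the 10 genes called, leaving out Hoxb13hd replicate 3 left Krt19 alone, and leaving out wild-type replicate 2 left Trp63, Krt15 and Krt19. Without Hoxb13hd replicate 1 all 5 were called. The direction held in 16 of 16 alternatives for each of the 5 genes, with log2 values of 0.53 to 0.70 for Krt19, 0.51 to 0.88 for Trp63, 0.72 to 1.29 for Krt15, 0.32 to 0.58 for Esrp1 and 0.37 to 0.67 for Grhl2. Krt19 passed in 13 of the 16, Trp63 in 10, Krt15 in 9, Esrp1 in 6 and Grhl2 in 5.

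**Figure D3:**
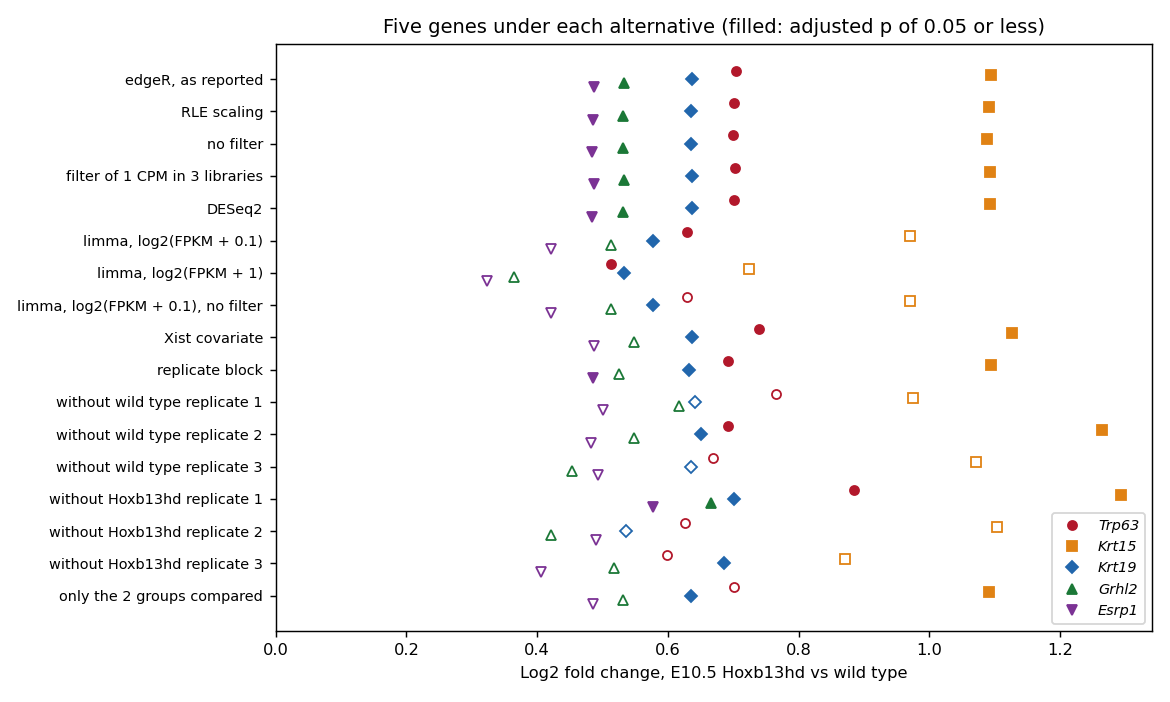
Log2 fold change of E10.5 Hoxb13hd against wild type (x axis) for the 5 called genes (symbols) under the reported fit and 16 alternatives (rows); filled symbols have an adjusted p of 0.05 or less. Every symbol lies right of 0, and the rows without wild-type replicate 1, wild-type replicate 3 or Hoxb13hd replicate 2 hold open symbols only.

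Other surface ectoderm genes had positive fitted values in Hoxb13hd embryos. Of 21 listed genes of surface ectoderm and epidermis 20 were tested, 3 were called higher and 0 lower, and 19 had a positive log2 value (median 0.48). The marker lists were also chosen with earlier results of these data known, so such counts are no test of a list. The called genes were Sp6 (19.1 ± 3.07 CPM in Hoxb13hd and 11.0 ± 1.48 in wild type, SD, n = 3 each; log2 0.79, edgeR adjusted p = 0.0156) and Sp8 (27.2 ± 4.6 and 18.8 ± 0.861; log2 0.53, edgeR adjusted p = 0.0310), which are transcription factors of the limb bud's ectodermal ridge, and Dlx3 (5.25 ± 1.12 and 2.67 ± 0.423; log2 0.97, edgeR adjusted p = 0.0328), a homeobox gene of ectoderm. Of 29 tested genes of junctions and polarity 1 was called, the tricellular junction receptor Lsr (log2 0.37, edgeR adjusted p = 0.0328), and 24 were positive (median 0.24). That single call is near the 3.01% of all genes called in this comparison and is not a result about the list. Of 7 nephric duct genes 2 were called higher: the receptor Ret (log2 0.63, edgeR adjusted p = 0.0316) and the ligand Wnt9b (log2 0.68, edgeR adjusted p = 0.0377). Only 4 of the 7 had a positive log2 value (median 0.32), so the list as a whole did not share 1 direction.

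Hindgut and endoderm genes mostly had the other sign. Of 13 tested 0 were called by edgeR, 3 were positive and the median log2 value was -0.32. Cdx2, the regulator of intestinal identity that is also active in the tail bud, had 9.28, 17.3 and 15.2 CPM in Hoxb13hd, against 4.62, 8.05 and 1.56 CPM in wild type (log2 1.55, edgeR adjusted p = 0.0836). Hnf4a, a regulator of liver and gut epithelium, had 3.54, 0.805 and 1.69 CPM in Hoxb13hd, against 6.07, 4.66 and 5.18 CPM in wild type (log2 -1.39, edgeR adjusted p = 0.126). The 15 visceral endoderm and liver genes summed to 159, 54.2 and 117 CPM in Hoxb13hd, against 745, 344 and 241 CPM in wild type. All 15 had a negative log2 value (median -1.95), and 0 were called. Their part in the calls of the 5 genes was not tested. Of 5 mesothelium genes 0 were called (median -0.41), as with 8 notochord and floor plate genes (median 0.43), 2 trophoblast genes (median 1.36) and 1 head gene (log2 1.03).

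Krt15 and Krt19 lie on the same chromosome as the HoxB cluster, at chr11:100131757-100135928 and chr11:100140809-100146120 (mm10), 3.94 and 3.95 Mb from Hoxb13. Within 5 Mb of Hoxb13, a window set with the values in view, 168 genes were tested. Of these, 12 (7.14%) were called in Hoxb13hd against wild type, 8 of them higher, Krt15 and Krt19 included. On the rest of that chromosome 47 of 1139 were called, and of all genes outside the window 2.96%. The share was also higher inside the window than outside in the other mutant groups against wild type. It was 3.57% and 0.458% in E10.5 Del(i9-13), and 2.98% and 0.376% in Del(i9-13):Hoxb13hd. At E9.5 it was 2.35% and 0.340% in Del(i9-13). The part of this position in the calls of Krt15 and Krt19 was not tested. The other 8 members lie on other chromosomes.

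Embryos with the deletion alone at E10.5 had 0 of the 10 genes called against wild type, where 0.488% of all genes were called (edgeR). At an unadjusted p under 0.05 there was 1 gene, Krt15, which is near the 9.13% of all genes at that threshold, and DESeq2 called the same single gene. The 10 genes had a median log2 value of 0.18, and 9 were positive. Krt15 had 7.53, 11.4 and 6.46 CPM in Del(i9-13), against the wild-type 3.63, 5.38 and 4.25 CPM. Its log2 value of 0.93 (SE 0.25, edgeR adjusted p = 0.180) was the largest in size. Of the other genes, Krt8 had 108, 103 and 93.5 CPM in Del(i9-13), against 91.4, 83.9 and 86.9 CPM in wild type (log2 0.22, SE 0.13, edgeR adjusted p = 0.657). Krt8 did not overlap between the groups, and its difference was not past the test.

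Embryos with both alterations, Del(i9-13):Hoxb13hd, likewise had 0 of 10 called against wild type by edgeR (Krt15 by DESeq2), with 0.401% of all genes called. At an unadjusted p under 0.05 there were 4 of the 10, against 12.5% of all genes. The median log2 value was 0.26 and 9 were positive. Krt15 had 9.15, 6.95 and 8.64 CPM in Del(i9-13):Hoxb13hd (log2 0.90, SE 0.25, edgeR adjusted p = 0.173). Krt19 had 22.3, 27.2 and 26.4 CPM in Del(i9-13):Hoxb13hd, against 20.2, 20.5 and 20.0 CPM in wild type (log2 0.32, SE 0.11, edgeR adjusted p = 0.262). Its 3 libraries all lay above wild type. Grhl2 (log2 0.32, SE 0.13, edgeR adjusted p = 0.338) and Esrp1 (log2 0.28, SE 0.11, edgeR adjusted p = 0.321) made up the remaining genes of the 4.

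Krt15 and Krt19 are the members whose 9 mutant libraries all lay above the 3 wild-type libraries at E10.5. The share of all genes with this order is not given here, so it only describes these libraries. For Krt15 the mutant libraries ran from 6.46 to 12.3 CPM, against 3.63 to 5.38 CPM in wild type. For Krt19 they ran from 20.8 to 36.1 CPM, against 20.0 to 20.5 CPM in wild type. The 3 comparisons share those wild-type libraries, so the log2 values of 0.93, 0.90 and 1.09 for Krt15 in Del(i9-13), Del(i9-13):Hoxb13hd and Hoxb13hd are not separate evidence.

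Set against Hoxb13hd, Del(i9-13):Hoxb13hd libraries had 0 of the 10 called by edgeR, where 0.959% of all genes were called. At an unadjusted p under 0.05 there were 2 of the 10, near the 15.2% of all genes at that threshold. The 10 log2 values were all negative, with a median of -0.20. Trp63 had 21.2, 23.3 and 20.6 CPM in Del(i9-13):Hoxb13hd, against 21.4, 32.3 and 33.3 CPM in Hoxb13hd (log2 -0.42, SE 0.14, edgeR adjusted p = 0.175). Hoxb13hd replicate 1 lay within the Del(i9-13):Hoxb13hd range, and without that library Trp63 was called. Krt19 had 22.3, 27.2 and 26.4 CPM in Del(i9-13):Hoxb13hd, against 28.7, 36.1 and 29.6 CPM in Hoxb13hd, without overlap (log2 -0.31, SE 0.11, edgeR adjusted p = 0.184). In the surface ectoderm list, 2 of 20 were called lower, Sp6 (log2 -0.73, edgeR adjusted p = 0.0339) and Sp8 (log2 -0.55, edgeR adjusted p = 0.0446), and 5 were positive (median -0.25). Visceral endoderm and liver markers summed to 384, 426 and 342 CPM in Del(i9-13):Hoxb13hd, against 159, 54.2 and 117 CPM in Hoxb13hd, and their part was not tested.

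An interaction term tested whether the effect of Del(i9-13) depended on hd. It called 0 of the 10 by edgeR, where 0.523% of all genes were called. At an unadjusted p under 0.05 there were 4 of the 10, against 11.7% of all genes. The terms were negative for 9 of 10 (median -0.34), the largest being -1.13 (SE 0.35, edgeR adjusted p = 0.217) for Krt15, -0.59 (SE 0.20, edgeR adjusted p = 0.261) for Trp63 and -0.50 (SE 0.15, edgeR adjusted p = 0.217) for Krt19. Trp63 was called without Hoxb13hd replicate 1. Averaged over both hd states, the deletion called 0 of 10 by edgeR, 0 also at an unadjusted p under 0.05, with a median log2 value of -0.05 and 0.5% of all genes called. Del(i9-13):Hoxb13hd against Del(i9-13) also called 0 of 10 (0 at an unadjusted p under 0.05, median 0.05, 0.907% of all genes called). Its largest log2 values were 0.22 (SE 0.11) for Esrp1 and 0.20 (SE 0.13) for Grhl2. Of the 29 junction genes the adhesion molecule Cdh3 was called there (log2 0.52, edgeR adjusted p = 0.0444).

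At E9.5 the keratins of simple epithelium and Cldn6 had the largest differences, with a wide spread among the Del(i9-13) libraries, and 0 of the 10 genes were called by edgeR. Of all 16041 genes tested 0.362% were called. Of the 10 genes, 3 had an unadjusted p under 0.05 (11.7% of all genes), and DESeq2 called 2, Krt19 and Cldn6. The median log2 value was 0.37, with 9 positive. The values were 0.67 (SE 0.29, edgeR adjusted p = 0.478) for Krt8, 0.60 (SE 0.22, 0.408) for Cldn6, 0.59 (SE 0.23, 0.423) for Krt18 and 0.48 (SE 0.14, 0.288) for Krt19. Trp63 had the smallest, at -0.03 (SE 0.09, edgeR adjusted p = 0.925).

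Krt8 had 141, 205 and 301 CPM in Del(i9-13), against 126, 137 and 145 CPM in wild type. Krt18 had 104, 152 and 190 CPM in Del(i9-13), against 99.4, 93.5 and 105 CPM in wild type. Cldn6 had 52.9, 69.2 and 83.4 CPM in Del(i9-13), against 36.8, 44.4 and 54.6 CPM in wild type. For all 3 genes replicate 3 was the highest Del(i9-13) library and replicate 1 fell within the wild-type range. Krt19 had 44.7, 50.2 and 49.96 CPM in Del(i9-13), against 28.6, 32.8 and 42.5 CPM in wild type. It was the only member of these 4 whose groups did not overlap. Without Del(i9-13) replicate 3 the log2 values were 0.35 for Krt8, 0.37 for Krt18, 0.43 for Cldn6 and 0.46 for Krt19, and 0 of the 10 were called.

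At E9.5, markers of visceral endoderm and liver moved with these genes. The 15 markers summed to 148, 346 and 1486 CPM in the Del(i9-13) libraries, against 45.3, 49.6 and 151 CPM in wild type. None of the 15 was called, 14 were positive and the median log2 value was 2.97. Afp, the fetal serum protein of yolk sac and liver, had 62.0, 151 and 521 CPM in Del(i9-13), against 12.3, 16.5 and 70.7 CPM in wild type. Cubn, an endocytic receptor of yolk sac epithelium, had 9.31, 11.98 and 147 CPM in Del(i9-13), against 3.53, 3.88 and 4.37 CPM in wild type. Both follow the order of Krt8, Krt18 and Cldn6 among the Del(i9-13) libraries, and their part in these values was not tested. At E10.5, Del(i9-13) replicate 1 had the highest sum, 2424 CPM, with 108 CPM of Krt8, 93.4 CPM of Krt18 and 37.97 CPM of Cldn6. The other 11 E10.5 libraries had 83.9 to 134 CPM of Krt8 and 69.5 to 95.7 CPM of Krt18, as the plot against these markers shows. Del(i9-13) replicate 1 ranked 4 of 12 for Krt8 and 2 of 12 for Krt18 and for Cldn6. Hoxb13hd replicate 2 had the lowest sum at E10.5, 54.2 CPM, and ranked 1 of 12 for Krt8, Krt18 and Cldn6.

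**Figure D4:**
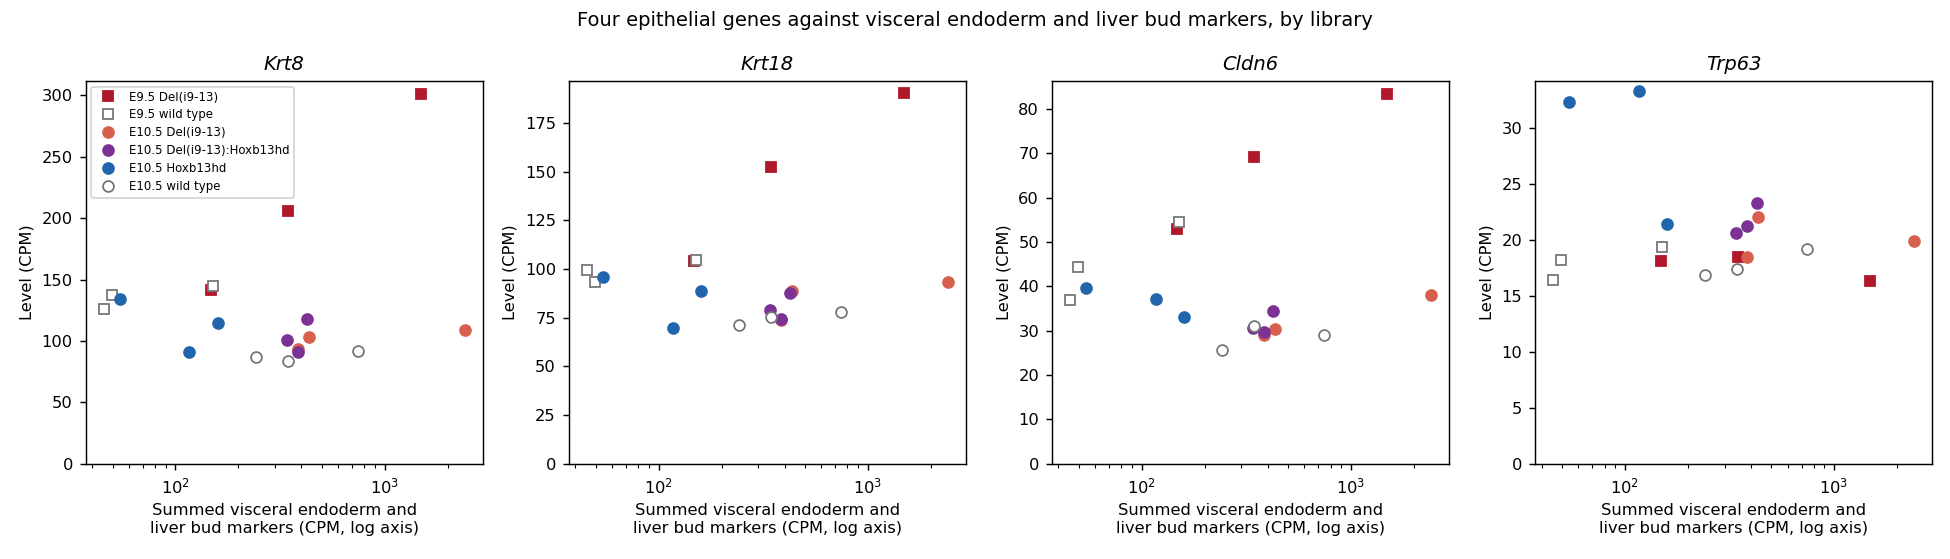
CPM of Krt8, Krt18, Cldn6 and Trp63 (y axes, linear from 0) against the summed CPM of 15 visceral endoderm and liver bud markers (x axis, log scale) in each of 18 libraries; squares are E9.5, circles E10.5, and open symbols wild type. The E9.5 Del(i9-13) library at 1486 CPM of markers has the highest Krt8, Krt18 and Cldn6. The E10.5 Del(i9-13) library at 2424 CPM has 108 CPM of Krt8 (rank 4 of 12 at E10.5) and ranks 2 of 12 for Krt18 and Cldn6. The E10.5 Hoxb13hd library at 54.2 CPM, the lowest sum at E10.5, ranks 1 of 12 for Krt8, Krt18 and Cldn6.

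Epcam had 28.7, 36.01 and 37.7 CPM in E9.5 Del(i9-13), against 24.6, 25.2 and 33.9 CPM in wild type (log2 0.29, SE 0.15, edgeR adjusted p = 0.506). Esrp1 had 19.8, 23.4 and 23.9 CPM in Del(i9-13), against 16.7, 20.0 and 21.0 CPM in wild type (log2 0.22, SE 0.11, edgeR adjusted p = 0.498). Both overlapped between the groups, as did Grhl2 (log2 0.15, SE 0.13) and Foxa1 (log2 0.24, SE 0.24). Krt15 had 4.88, 5.21 and 5.93 CPM in Del(i9-13), against 0.785, 5.92 and 5.10 CPM in wild type. Its log2 value of 0.45 (SE 0.69, edgeR adjusted p = 0.840) rests on wild-type replicate 1, the low library, without which it was -0.05. Of the 30 junction genes 0 were called by edgeR and 28 were positive (median 0.40), Marveld3 (log2 1.54, edgeR adjusted p = 0.187) and Cldn3 (log2 0.74, edgeR adjusted p = 0.235), both of tight junctions, having the smallest p. Of 15 endoderm genes 0 were called and 12 were positive (median 0.30), and of 21 surface ectoderm genes 0 were called and 15 were positive (median 0.10).

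Whether the deletion acted differently at E9.5 and E10.5 was tested in a joint fit of the 12 wild-type and Del(i9-13) libraries. It called 0 of the 10 by edgeR, 0 also at an unadjusted p under 0.05, with 0.0453% of all genes called. The differences, E9.5 minus E10.5, were 0.42 (SE 0.29) for Krt8, 0.39 (SE 0.25) for Cldn6, 0.38 (SE 0.24) for Krt18, 0.28 (SE 0.17) for Krt19 and -0.22 (SE 0.14) for Trp63. The values of Foxa1, 0.51 (SE 0.38), and Krt15, -0.50 (SE 0.76), were the largest in either direction and had the widest errors.

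The genes whose log2 CPM followed each member most closely over the 12 E10.5 libraries were ranked by Pearson's r among 13074 genes, as a description of libraries that share depth and tissue make-up. Trp63 was nearest to Fgf8, a growth factor of tail bud and limb ridge (r = 0.96 over 12 libraries, 0.66 over the 6 E9.5 libraries). Krt8 and Krt18 were each among the nearest 3 of the other (r = 0.89 and 0.98). Cldn6 was nearest to Notum, a secreted Wnt inhibitor (r = 0.90 and 0.81), and Grhl2 to the integrin subunit Itgb5 (r = 0.97 and 0.91). Krt19 was nearest to Klhdc8a with r = 0.96 at E10.5 and -0.58 at E9.5, so that this likeness did not recur at the other stage.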

How the data were processed

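RNA of headless embryos was sequenced in 18 libraries. The deposited count table holds whole read counts per gene, which the authors derived from reads mapped to mm10, and the submitters' processing notes name cutadapt 1.18 and STAR 2.7.10a. The sources used here do not say how reads were assigned to genes (program, strandedness, gene models). The FPKM values were likewise deposited by the authors, and Cufflinks 2.2.1 is the tool in those notes that yields this unit. Groups and replicates come from the sample titles, and 0 columns lacked a sample.

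Counts were fitted in R 4.3.3 with edgeR 4.0.16 (filterByExpr with a minimum count of 10 and total of 15, TMM, robust quasi-likelihood), separately for the 6 E9.5 and the 12 E10.5 libraries, with 1 further fit of the 12 wild-type and Del(i9-13) libraries of both stages. P-values were adjusted over all genes tested, and genes with an adjusted p of 0.05 or less are called. CPM are counts scaled with TMM factors. The fits were tested on simulated data. The alternatives tried were scaling by RLE, dropping the filter, requiring 1 CPM in 3 libraries, DESeq2 1.42.0, Xist as a covariate, the replicate number as a block, only the compared groups, and each library left out. Further alternatives were limma 3.58.1 on log2(FPKM + 0.1), with and without a filter at FPKM 1, and on log2(FPKM + 1) with that filter.

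The 10 genes and 9 lists of markers (121 genes) were chosen with earlier results of these data known. The text names all 10 genes and, per list and comparison, up to 3 called genes with the smallest p or, with none called, up to 2. Genes of the visceral endoderm list, Krt5, the defining markers used to check tissues, and the nearest genes are named beside them. Replicates of a group differed beyond sampling noise (chi-square per degree of freedom 8.90 to 45.6), so none was a repeat deposit of another, and depth did not limit well-counted genes.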

Additional observations from a re-analysis of the deposited data

How the results depend on the processing

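Of the 1566 fitted values of the 10 genes under alternatives, 1519 kept their side of the threshold, 37 calls were lost, 10 were gained and 0 called values changed sign; 72 values that were never called did. The losses were in Hoxb13hd against wild type at E10.5, where 5 of 10 genes were called. There limma on log2(FPKM + 0.1) called 2, on log2(FPKM + 1) 2, and on log2(FPKM + 0.1) without the filter 1. The Xist covariate called 3, and only the 2 groups compared called 2. Leaving out each library gave 0 to 5. At E9.5, where 0 were called, DESeq2 called 2, the Xist covariate 1 (Krt15, log2 2.80) and leaving out each library 0 to 1. DESeq2 called 1 each when E10.5 Del(i9-13) or Del(i9-13):Hoxb13hd was set against wild type. Leaving out each library gave 0 to 1 in Del(i9-13):Hoxb13hd against Hoxb13hd and in the interaction. The cause of these changes was not tested, beyond fewer libraries where one was left out. Counts of all genes called moved as well: 517 in Hoxb13hd against wild type became 51 to 676 without a library and 132 to 1240 under the other settings, and 58 at E9.5 became 40 to 53 and 20 to 537. For the other comparisons, in the order library left out and other settings, 84 in E10.5 Del(i9-13) became 40 to 285 and 55 to 276, 69 in Del(i9-13):Hoxb13hd 14 to 41 and 21 to 326, 165 against Hoxb13hd 36 to 412 and 45 to 658, 156 against Del(i9-13) 58 to 1453 and 76 to 673, 86 in the pooled deletion effect 21 to 353 and 23 to 389, 90 in the interaction 40 to 174 and 47 to 297, and 8 between stages 3 to 24 and 1 to 88. With the replicate number as a replicate block, 1 gene (Cldn6) was called at E9.5, where the count of all genes became 79, and 4 of 10 in Hoxb13hd against wild type, Grhl2 no longer passing. The labels tie the numbers to nothing shared, so the block was tried as an alternative and not as a known pairing. Deviations of same-numbered libraries correlated at -0.000292 to 0.145 (median 0.0915) at E9.5 and -0.233 to 0.155 (median 0.0599) at E10.5. For libraries with different numbers the medians were -0.0448 and 0.0109. These values cannot settle whether the numbers mark a pairing, since the ranges overlap. Set against the 3 libraries of each other group of its stage, a library correlated best with its own number in 3 of 6 cases at E9.5 and 17 of 36 at E10.5.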
